A study of Homo sapiens with 6 samples.

Results

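The ZFP36 family of mRNA decay factors was examined through its 3 genes, ZFP36, ZFP36L1 and ZFP36L2, which were chosen by gene name in the GENCODE annotation. They are 3 of 62252 annotated genes in the files, and 12 of 252045 transcripts. Iron chelation was compared with its solvent control in K562 cells, an established erythroid leukemia line. The Chelator group (n = 3) received 10 µM 21H7, a chelator that enters cells, overnight, and the DMSO group (n = 3) received the same volume of DMSO. Both groups were grown in the same serum-containing medium, no engineered allele is named for either, and each was described as 3 biological replicates. The samples come from 1 transformed line at 1 dose and 1 time. Polyadenylated RNA was sequenced, so a change in level can come from synthesis or decay. Fewer cells of a kind cannot be told apart from less of an mRNA per cell. No protein or phosphorylation of this family was measured.

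Proteins of this family carry a tandem zinc finger domain that binds AU-rich elements in the 3′ UTR of mRNAs, of which UAUUUAU is the core. They recruit the CCR4-NOT deadenylase complex, so that the bound mRNA loses its poly(A) tail and is degraded. MK2, a kinase below p38, phosphorylates ZFP36, which then binds 14-3-3 proteins and recruits deadenylases less well. The 3 genes behave as immediate early genes in many cells, and their own mRNAs hold AU-rich elements. In cells short of iron, ZFP36 is known to lower TFRC, which encodes transferrin receptor 1, together with mRNAs for iron-containing subunits of the respiratory chain.

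The libraries held between 78615500 and 101094957 estimated counts. Between 18973 and 19807 genes reached 10 counts in DMSO and between 20253 and 21067 in Chelator. The difference between length and effective length of transcripts, which follows the length of the sequenced fragments, averaged 255 to 267 bases in DMSO and 205 to 222 bases in Chelator without overlap, and its part in any result cannot be told apart from the treatment. DMSO replicate 2 stood furthest from its group, with a chi-square per gene of 42.9 and 62.1 against the other DMSO libraries, compared with 8.23 between those 2. Chelator replicate 1 also stood apart, at 30.8 and 28.4 against the other Chelator libraries, compared with 6.59 between those. The 8 erythroid markers reported were present in every library, at 42.9 TPM or more, but 4 rose, 3 fell and 1 did not pass. Their summed level was 12318 to 13664 TPM in DMSO and 17386 to 18568 TPM in Chelator. The embryonic and fetal globin genes HBE1, HBZ, HBG2 and HBG1 rose by 0.76, 0.48, 0.37 and 0.24 on the log2 scale, the erythroid transcription factors LMO2, KLF1 and TAL1 fell by 0.72, 0.72 and 0.28, and GATA1 (−0.13), their partner, did not pass. Markers of T cells (CD3E, at most 0.552 TPM), hepatocytes (ALB, at most 0.233 TPM) and fibroblasts (COL1A1, 0.502 to 2.10 TPM) were low. CD3E and COL1A1 had more counts in each Chelator library than in any DMSO library, and the part of these and of the erythroid markers in the results was not tested.

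ZFP36 lies on the plus strand at chr19:39406847-39409412, ZFP36L1 on the minus strand at chr14:68787660-68796253 and ZFP36L2 on the minus strand at chr2:43222402-43226606 (GRCh38). The core motif was searched as TATTTAT on the sense strand, overlaps allowed, in the 3′ UTR of the coding transcript with the highest mean TPM, and the longer TTATTTATT, which contains it, was searched likewise. Each member held 3 matches to TATTTAT, 1 of them inside TTATTTATT, although their 3′ UTRs were 708, 1871 and 1917 bases long for ZFP36, ZFP36L1 and ZFP36L2. Of 15196 coding genes, 28.9% held at least 1 TATTTAT, 5.08% held 3 or more, 2.61% held exactly 3, and 7.56% held TTATTTATT. The 9 sites are shown because the members are themselves AU-rich mRNAs; each is 30 bases of the genome read 5′ to 3′ on the gene's strand, with the counted motif in capitals.
ZFP36 chr19:39409181-39409210: aatgggcccttTATTTATgacgactttatt
ZFP36 chr19:39409196-39409225, in the longer motif: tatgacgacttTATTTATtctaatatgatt
ZFP36 chr19:39409221-39409250: tgattttatagTATTTATatatattgggtc
ZFP36L1 chr14:68788335-68788364: ttatcaaaacgTATTTATtgccaaactatg
ZFP36L1 chr14:68788293-68788322: aattttgttcaTATTTATcgggatgacaaa
ZFP36L1 chr14:68788076-68788105, in the longer motif: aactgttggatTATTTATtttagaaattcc
ZFP36L2 chr2:43223447-43223476, in the longer motif: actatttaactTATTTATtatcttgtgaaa
ZFP36L2 chr2:43223399-43223428: tgttcatactgTATTTATcaagtatgatga
ZFP36L2 chr2:43223211-43223240: attgtatgtaaTATTTATttcattaatttc

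Iron chelation raised ZFP36L1 mRNA by 3.56-fold and ZFP36 mRNA by 1.27-fold, while ZFP36L2 did not pass the test. The smaller rise of ZFP36 did not pass in 2 alternative fits given below. Levels were first compared between genes per length, in TPM, a measure of transcript number scaled for transcript length and for the total of the library. ZFP36L2, which blood-forming stem cells need, was the most abundant member in the DMSO libraries, at 41.1, 47.4 and 41.0 TPM. ZFP36L1, a close relative that acts on many of the same mRNAs, followed at 16.9, 17.6 and 16.8 TPM, and ZFP36, also called tristetraprolin, was lowest at 6.77, 7.15 and 6.69 TPM. No ranges touched in that order. In the Chelator libraries ZFP36L1 led at 63.8, 59.2 and 63.7 TPM, above ZFP36L2 at 47.2, 46.8 and 47.4 TPM and ZFP36 at 8.51, 8.97 and 9.23 TPM, again with no overlap between neighbours. The 2 leading genes therefore changed places in TPM. In CPM, which is not scaled for length, ZFP36L2, the gene with the longer transcript, stayed ahead of ZFP36L1 in every Chelator library.

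**Figure D1:**
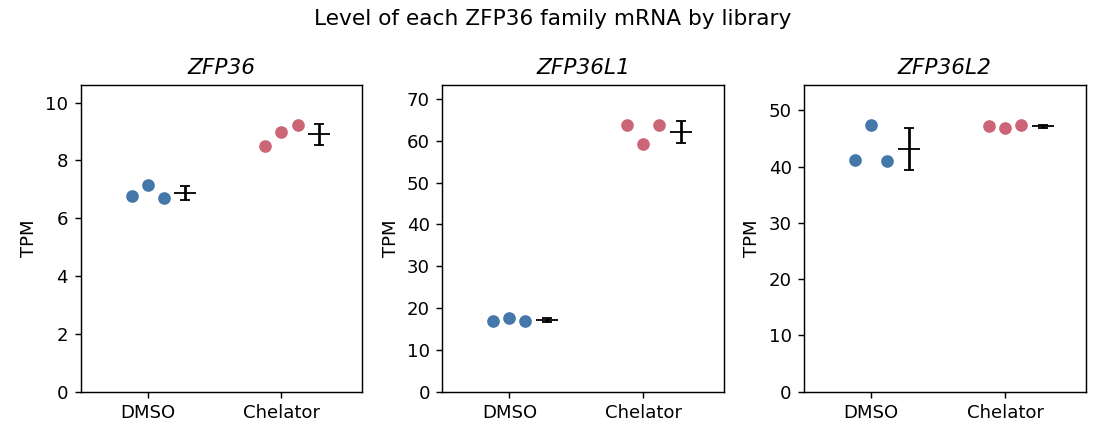
TPM (vertical axis, from 0) of each member in each library, with one point per library and the mean and SD beside each group (n = 3). ZFP36L1 moves from 16.8 to 17.6 TPM in DMSO to 59.2 to 63.8 TPM in Chelator, ZFP36 shifts slightly, and the ZFP36L2 groups overlap.

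Expression was tested with DESeq2 on gene sums of the estimated counts, with an adjusted p under 0.05 for a difference and, for a call, also an absolute log2 fold change above 1. Of all genes tested, 10.8% were called, 8.18% were called higher in Chelator, and 37.7% passed at any fold, 19.5% higher and 18.3% lower. One of the 3 members, ZFP36L1, was called, and it was higher. ZFP36 passed at any fold without being called.

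ZFP36L1 had 3360, 2943 and 3283 normalised counts in DMSO and 12009, 10507 and 11632 in Chelator. Every Chelator library stood far above every DMSO library. The means were 3195 ± 222 and 11383 ± 781 (SD, n = 3). This is a change of 1.83 in log2 (95% interval 1.67 to 2.0, SE 0.085), at an adjusted p of 1.86e-100 in DESeq2. Among the 2007 genes called higher, 1066 rose more than ZFP36L1. Without DMSO replicate 2 the log2 fold change was 1.77, and without Chelator replicate 1 it was 1.80.

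ZFP36 had 907, 808 and 883 normalised counts in DMSO and 1082, 1076 and 1138 in Chelator. The groups did not overlap, but their gap was small. The means were 866 ± 51.6 and 1098 ± 34.4 (SD, n = 3). The change was 0.34 in log2 (95% interval 0.13 to 0.55, SE 0.11), at an adjusted p of 0.0046 in DESeq2. Without DMSO replicate 2 it was 0.29 (DESeq2 adjusted p = 0.017), and without Chelator replicate 1 it was 0.36 (DESeq2 adjusted p = 0.0085). The difference no longer passed under centring on the mean log2 change of genes above a low count floor (0.17, DESeq2 adjusted p = 0.23). Nor did it pass after removal of trends with gene GC content and length (0.21, DESeq2 adjusted p = 0.070).

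ZFP36L2 had 12640, 12284 and 12406 normalised counts in DMSO and 13763, 12872 and 13391 in Chelator. The Chelator values lay above the DMSO values in normalised counts, whereas in TPM the DMSO replicate 2 value was the highest of all 6. The means were 12443 ± 181 and 13342 ± 447 (SD, n = 3). The change was 0.10 in log2 (adjusted p = 0.22 in DESeq2, SE 0.064), and it turned to −0.067 under the same mean centring as for ZFP36. Leaving out DMSO replicate 2 gave 0.088, and leaving out Chelator replicate 1 gave 0.081. The 95% interval ran from −0.025 to 0.23 on the log2 scale, or from 0.983-fold to 1.17-fold. The normalised counts of all 3 members did not overlap between groups, which held for 49.2% of genes tested.

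**Figure D2:**
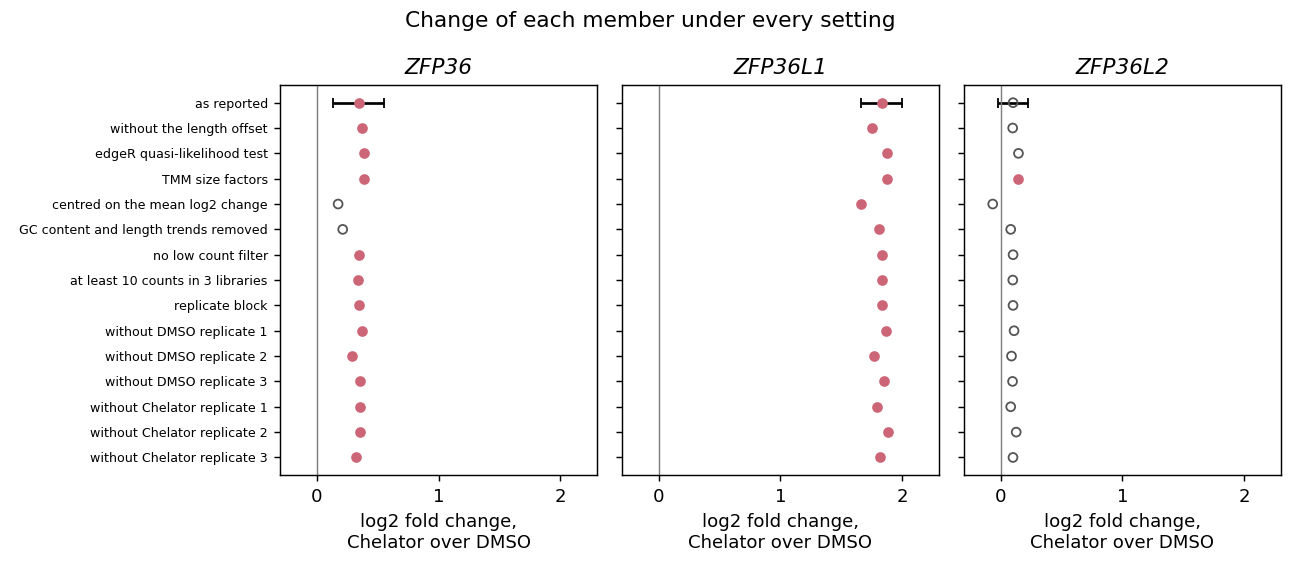
Log2 fold change of Chelator over DMSO (horizontal axis) for each member under every setting (rows), filled where the adjusted p was under 0.05, with the 95% interval on the value as reported. ZFP36L1 lies between 1.67 and 1.89 throughout, and ZFP36L2 lies near 0 on either side.

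The family's summed level was 64.8, 72.2 and 64.4 TPM in DMSO and 120, 115 and 120 TPM in Chelator. All Chelator sums were higher, with means of 67.1 ± 4.35 and 118 ± 2.86 TPM (SD, n = 3). ZFP36L1 made up 25.5 ± 0.98% of the sum in DMSO and 52.6 ± 1.00% in Chelator (SD, n = 3). The share of ZFP36L2 was 64.3 ± 1.27% in DMSO and 39.9 ± 0.74% in Chelator, and that of ZFP36 was 10.2 ± 0.29% and 7.53 ± 0.36%. ZFP36L1 was present at 0.397 ± 0.023 times the level of ZFP36L2 in DMSO and at 1.32 ± 0.049 times in Chelator, on the TPM scale. In CPM the ratio was 0.264 ± 0.0030 and 0.829 ± 0.055. None of these 5 quantities overlapped between groups, and each gave p = 0.1 in an exact two-sided permutation test (n = 3 per group), the smallest that 3 against 3 allows, or 0.1 after Benjamini-Hochberg adjustment over the 5. The lower shares of ZFP36 and ZFP36L2 were not lower levels of those mRNAs.

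**Figure D3:**
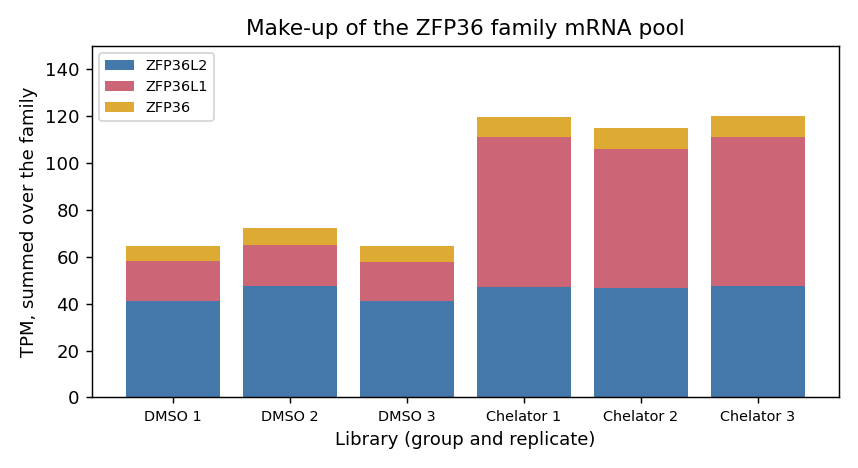
TPM of the 3 members stacked for each library (vertical axis, from 0), with libraries along the horizontal axis. The sum goes from 64.4 to 72.2 TPM in DMSO to 115 to 120 TPM in Chelator, and the ZFP36L1 segment accounts for most of the added height.

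Transcript usage was compared within each gene that had several transcripts. ZFP36L2 has 1 annotated transcript and could not be tested. For ZFP36L1, the 3017-base transcript ZFP36L1-202 carried 86.4 ± 4.43% of the gene's TPM in DMSO and 84.3 ± 5.32% in Chelator (SD, n = 3), and its level went from 13.8, 15.9 and 14.7 TPM to 56.8, 50.5 and 49.997 TPM. The rise of ZFP36L1 was thus carried mainly by this transcript. The 633-base ZFP36L1-203 held 9.45 ± 4.74% and 12.5 ± 4.42%. ZFP36L1-201, of 4539 bases, went from 3.35 ± 0.59% to 1.76 ± 0.33% without overlap, with an edgeR usage adjusted p of 0.95.

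Reads of ZFP36 were divided between 2 nearly identical transcripts, ZFP36-202 and ZFP36-203, of 1752 and 1747 bases. In DMSO replicates 1 and 3, and in Chelator replicate 1, salmon gave ZFP36-202 a value of 0, whereas in DMSO replicate 2 it gave that transcript 91.1% of the gene's TPM and ZFP36-203 a value of 0. Chelator replicates 2 and 3 gave it 14.6% and 20.7%. The values differed within a group as widely as they can, so ZFP36 is compared here by its gene sum. Neither ZFP36 nor ZFP36L1 was called for transcript usage (Simes p of 0.95 and 0.43, edgeR adjusted p of 1.0 for both), against 9.22% of genes tested. In limma neither was called, with an adjusted p of 0.071 for ZFP36L1 (0.025 unadjusted) and 0.65 for ZFP36.

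**Figure D4:**
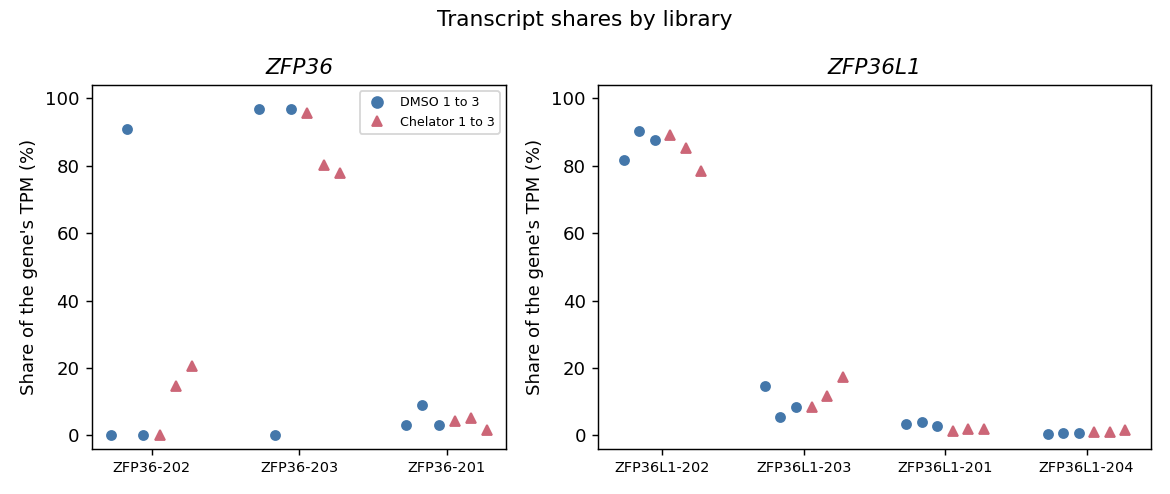
Share of the gene's TPM (vertical axis, percent) held by each main transcript of ZFP36 and ZFP36L1, with one point per library. ZFP36-202 reaches 91.1% in DMSO replicate 2 alone, and ZFP36L1-202 holds most of ZFP36L1 in all 6 libraries.

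Overlapping annotation was checked because the files do not say whether counting used strand. An antisense long noncoding gene, ENSG00000287387, shares 21.7% of the 31-base words of ZFP36L2. It held 31.2, 29.7 and 19.8 estimated counts in DMSO and 77.9, 92.7 and 36.6 in Chelator, between 0.184% and 0.599% of the ZFP36L2 counts. Without strand, reads of this gene and of ZFP36L2 in the shared stretch cannot be told apart. ENSG00000289626, on the strand of ZFP36L1, shares 7.37% of that gene's words and had 0 counts in every library. ZFP36 shared none with any other gene, and no member shared a word with another.

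The machinery that members of this family recruit was followed in lists of genes. Over all genes tested, 19.5% passed higher and 18.3% lower. Across classes of coding genes by TATTTAT count, 19.8% to 25.9% passed higher and 24.5% to 26.7% lower. Of 15 deadenylase genes, 6 fell, 1 rose and 8 did not pass, and the median log2 fold change was −0.14, compared with 0.016 over all genes tested. Under mean centring 11 of the 15 fell. CNOT1, the scaffold of CCR4-NOT that ZFP36 proteins contact, fell by 0.30 on the log2 scale (SE 0.081), and CNOT7, a catalytic subunit, fell by 0.61 (SE 0.10). PAN3, of the PAN2-PAN3 deadenylase, fell by 0.53, whereas PAN2, its catalytic subunit, rose by 0.996, just short of the threshold for a call. PAN2 was past that threshold without the correction for transcript length (1.16), in edgeR (1.04) and with TMM (1.04), and it ranged from 0.84 without Chelator replicate 3 to 1.16 without Chelator replicate 1. Among 16 genes of decapping and 5′-3′ decay, 6 fell, 3 rose and 7 did not pass, with a median of −0.11. LSM6, of the LSM ring that binds deadenylated mRNA, fell by 0.67, and DCPS, the scavenger decapping enzyme, fell by 0.61. DCP1A, a decapping cofactor, rose by 0.52, but by 0.044 without the correction for transcript length, where it did not pass. LSM4, of the same ring as LSM6, rose by 0.37, or 0.21 under mean centring and 0.16 after removal of GC and length trends.

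Of 12 RNA exosome genes, which degrade RNA from the 3′ end, 8 fell, 1 rose and 3 did not pass, at a median of −0.44. That is 66.7% lower and 8.33% higher, beside 18.3% and 19.5% over all genes tested. EXOSC6 had 7689, 8645 and 8430 normalised counts in DMSO and 4620, 4107 and 4426 in Chelator. The groups were well apart, and its log2 fold change was −0.91 (SE 0.081). EXOSC3 fell by 0.67, and EXOSC1 rose by 0.30, but did not pass under mean centring (0.13). None of these exosome genes was called, but EXOSC6 was past the threshold under mean centring (−1.08). Among 5 partners in translational repression, 2 fell and 3 did not pass, with a median of −0.23, whereas 4 fell under mean centring and 5 without the correction for transcript length. Those that fell were GIGYF1 by 0.47 and EIF4E2, a cap-binding protein that represses translation, by 0.37.

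Of 18 genes for p38 and MK2 kinases, phosphatases and 14-3-3 proteins, 9 fell, 3 rose and 6 did not pass, at a median of −0.27. Over all genes tested, 18.3% passed lower and 19.5% higher, and 8.18% were called higher. MAPKAPK2, which encodes MK2, had 11521, 10703 and 11476 normalised counts in DMSO and 15814, 15045 and 15441 in Chelator. It was higher in every Chelator library, with a log2 fold change of 0.46 (SE 0.067). MAPK14, which encodes p38α, fell by 0.32 (SE 0.076), MAP2K3, a kinase above p38, fell by 0.49 and YWHAG, a 14-3-3 protein, by 0.50. DUSP1, a phosphatase of p38 whose mRNA holds 3 TATTTAT, had 1282, 1145 and 1248 normalised counts in DMSO and 2105, 2065 and 2128 in Chelator, and rose by 0.78 (SE 0.091). MAPK13, which encodes p38δ, was the 1 gene called, with 26.3, 48.1 and 28.04 normalised counts in DMSO and 212, 176 and 435 in Chelator. It was low in DMSO and uneven in Chelator, with a log2 fold change of 3.01 (SE 0.37). Before the correction for transcript length its Chelator libraries held 193, 221 and 205 estimated counts, which are close to each other, and without that correction the log2 fold change was 2.11.

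The mRNAs of other proteins that bind AU-rich elements or stem-loops were also measured. Of 12 genes 7 fell, 2 rose and 3 did not pass, with a median of −0.24. That is 58.3% lower and 16.7% higher, beside 18.3% and 19.5% over all genes tested. HNRNPDL, a relative of AUF1, had 20498, 18742 and 20185 normalised counts in DMSO and 12008, 12094 and 12086 in Chelator, a log2 fold change of −0.72 (SE 0.066). HNRNPD, which encodes AUF1, fell by 0.37, and RC3H1, which encodes Roquin-1, by 0.53. After removal of GC and length trends RC3H1 stood at −0.24. KHSRP, which encodes the decay factor KSRP, fell by 0.19, which did not pass in edgeR (−0.14, adjusted p = 0.065). ELAVL1 encodes HuR, a protein that stabilises AU-rich mRNAs, and had a log2 value of −0.15 with SE 0.067, which missed the threshold (DESeq2 adjusted p = 0.053). ELAVL1 passed in 6 of 14 alternatives, among them mean centring (−0.32) and removal of GC and length trends (−0.19). ZC3H12A, which encodes the endonuclease Regnase-1, rose by 0.71. FXR1 rose by 0.28, a direction that turned to −0.035 without the correction for transcript length, and it did not pass under mean centring (0.11).

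**Figure D5:**
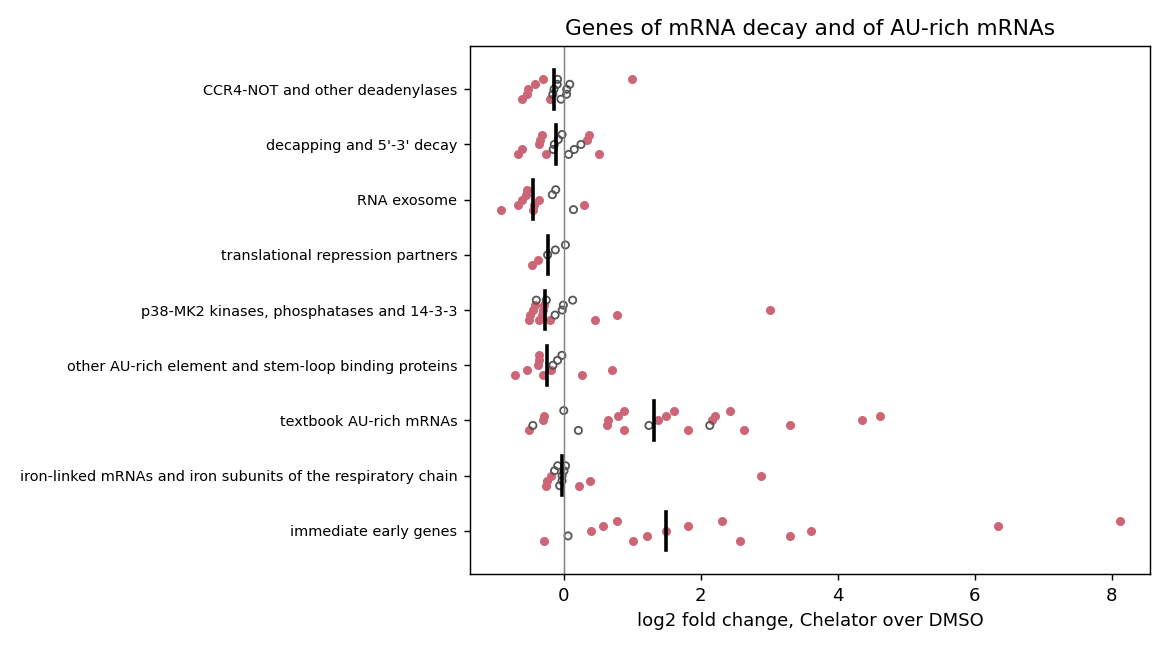
Log2 fold change of Chelator over DMSO (horizontal axis) for each gene of the 9 lists (rows), filled where the adjusted p was under 0.05, with a black bar at each list's median. The medians of the decay and kinase lists lie between −0.44 and −0.11, and those of the AU-rich and immediate early lists lie at 1.31 and 1.49.

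Textbook AU-rich mRNAs were mostly higher. Of 30 listed, 24 could be tested, and 16 rose, 3 fell and 5 did not pass, with a median of 1.31 and 11 called higher. Over all genes tested, 19.5% passed higher and 8.18% were called higher. CCL3, IL1B, IL2 and PTGS2 had too few counts for the fit, and IL3 and TNF had no adjusted p. CXCL8, a chemokine mRNA with 4 TATTTAT, had 32.3, 29.2 and 40.3 normalised counts in DMSO and 348, 312 and 345 in Chelator, a log2 fold change of 3.31 (SE 0.25). VEGFA, an angiogenic growth factor whose mRNA holds 3, had 6387, 5065 and 5450 in DMSO and 31111, 35365 and 38564 in Chelator, a log2 fold change of 2.64 (SE 0.10). VEGFA and CXCL8 thus rose together with ZFP36L1 in these libraries. The genes that fell were BCL2, STAT5B and MYC, by 0.50, 0.30 and 0.28. The 3′ UTRs counted for BCL2 and MYC held 0 TATTTAT and that of STAT5B held 1. Genes that rose could also hold few, since CCL2 held 0 and CCND1 and PLAUR held 1 each, named here after their values were seen. BCL2 still passed in 3 of 6 fits with a library removed and neither in edgeR (adjusted p = 0.056) nor after removal of GC and length trends (DESeq2 adjusted p = 0.12). Of 15 immediate early genes, the class to which the family itself belongs in many cells, 13 rose, 1 fell, 1 did not pass and 10 were called higher, beside the same shares over all genes. FOS, IER3 and MYC stand in both lists, and DUSP1 also stands in the kinase and phosphatase list. EGR3 went from 8.10 ± 3.06 to 2051 ± 244 normalised counts (SD, n = 3), and EGR2 had a log2 fold change of 6.33 (SE 0.49).

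Iron-linked mRNAs were read next, since ZFP36 is known to act on some of them, TFRC included. TFRC had 43071, 40145 and 54229 normalised counts in DMSO and 326280, 335339 and 355170 in Chelator. Every Chelator library lay far above the DMSO libraries, with a log2 fold change of 2.89 (SE 0.10) that was 2.11 without the correction for transcript length. Its 3′ UTR of 2658 bases, best known for its iron-responsive elements, held 2 TATTTAT, which are shown with the motif in capitals (GRCh38, minus strand).
TFRC chr3:196051051-196051080: tggcactgagaTATTTATtgtttatttatc
TFRC chr3:196051040-196051069: tatttattgttTATTTATcagtgacagagt

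Of the 13 iron-linked genes, 3 rose, 3 fell and 7 did not pass, and the median was −0.022. Higher and lower were 23.1% each, near the 19.5% and 18.3% over all genes tested. Under mean centring 1 rose and 7 fell. UQCRFS1, the Rieske iron-sulfur subunit of complex III, had 8571, 7583 and 8043 normalised counts in DMSO and 6531, 6934 and 6945 in Chelator, and fell by 0.25 (SE 0.076). It no longer passed after removal of trends with gene GC content and length (DESeq2 adjusted p = 0.081). NDUFS1, an iron-sulfur subunit of complex I, had 12052, 11883 and 13647 normalised counts in DMSO and 12571, 11091 and 10643 in Chelator. Its groups overlapped, and the log2 value was −0.13 with SE 0.088 (DESeq2 adjusted p = 0.26), or −0.38 without the correction for transcript length, where it passed. NDUFS1 also passed under mean centring (−0.30) and in 1 of 6 fits with a library removed. CYC1, the cytochrome c1 subunit of complex III, fell by 0.26, and NDUFS7, of complex I, rose by 0.38, but did not pass after removal of those trends (0.11, DESeq2 adjusted p = 0.12) or under mean centring (0.21, DESeq2 adjusted p = 0.054). No TATTTAT was found in the 3′ UTRs of UQCRFS1, NDUFS1, CYC1 or NDUFS7.

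Genes were ranked by how near their centred log2 normalised counts lay to each member over the 6 libraries, among 9653 coding genes. Nearest to ZFP36L1 were IGFBP4, PPARD and CALB1, at root mean square distances of 0.044, 0.054 and 0.061. PSMD10, EIF1B and EDEM2 were nearest to ZFP36, at 0.015, 0.019 and 0.020. MTCH1, KCTD2 and SH3BP5L were nearest to ZFP36L2, at 0.0094, 0.018 and 0.018. With 2 groups of 3 libraries, such a likeness mostly restates the size of the group difference.

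Finally, all coding genes were grouped by the number of TATTTAT in the 3′ UTR. The 10802 genes with none had a median log2 fold change of 0.032, the 2645 with 1 had −0.026, the 977 with 2 had −0.022, and the 772 with 3 or more, the class of the family itself, had −0.059. Calls of higher expression were made for 9.90%, 8.13%, 6.96% and 6.99% of these classes. With TTATTTATT in place of TATTTAT, the 87 genes with 3 or more sites had a median of 0.072, and 13.8% of them were called higher, against 9.25% of genes with none. The median 3′ UTR length also climbed, from 609 to 1738, 2658 and 4100 bases, and its part in these values was not tested. Among genes with 3′ UTRs of 1000 to 3000 bases, the 222 with 3 or more sites had a median of 0.11, the opposite sign, and 11.7% of them were called higher, against 9.74% of those with none. That window was chosen after seeing the data. These are descriptions across genes, which are not independent replicates.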

How the data were processed

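RNA from 6 K562 libraries was analysed, 3 per group, with group and replicate taken from the sample labels. The authors quantified reads with salmon 1.10.2, per the submitters' processing notes, which also name hg38. The transcript annotation, the strand setting and any bias correction are not given in the sources used here. The deposited files hold, per transcript, an estimated count, often not a whole number, and TPM, which the authors' software scaled by effective length and depth. Transcript and effective lengths came with them.

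Of 252045 transcripts, 251142 matched GENCODE release 44 in version and length, 470 in another version, and 433 did not match and were left out (0.139% to 0.150% of counts). Estimated counts were summed per gene, rounded, and tested with DESeq2 1.42.0 (R 4.3.3; Wald test, median-ratio size factors, average transcript length offset) for genes with a total above 10, with Benjamini-Hochberg adjustment over all genes tested. Transcript usage was tested with edgeR 4.0.16 (diffSpliceDGE, at least 10 counts in at least 3 libraries, Simes p per gene), and called at an adjusted p under 0.05 with a share changed by over 5 percentage points. Family sums and shares were tested with exact permutation tests in SciPy 1.17.1.

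Normalised counts were corrected for size factor and length offset. Motifs were counted in GENCODE 3′ UTRs. Members, lists and tests were chosen with earlier results of these data known. Text names the members, 10 set genes, and in each list the 2 largest rises and 2 largest falls that passed with a mean of at least 100, plus the 3 nearest profiles per member (mean of at least 500). Alternatives were the length offset, edgeR, TMM, mean centring, GC and length trends, count filters, limma 3.58.1 for transcript usage, a replicate block and leaving out each library. Some marker genes are not reported here.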

Additional observations from a re-analysis of the deposited data

How the results depend on the processing

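ZFP36L1 rose in all 14 alternatives run, and leaving out 1 library gave 1.77 to 1.89 (log2). ZFP36 passed in 12 of 14 (0.29 to 0.37 when 1 library was left out), but not with mean centring (0.17) or GC and length trends removed (0.21). ZFP36L2 did not pass except with TMM (0.145), and was −0.067 with mean centring, against 0.081 to 0.13 when 1 library was left out. Mean centring moved the median of all genes from 0.016 to −0.15 and the share of calls that were higher from 75.9% to 60.1%. Without a fold threshold, 9260 genes passed in place of 2646. On the CPM scale, which is not per length, the Chelator over DMSO ratio of the family sum was 1.61 in place of 1.76, of the ZFP36 share 0.843 in place of 0.735, of the ZFP36L1 share 2.19 in place of 2.06 and of the ZFP36L2 share 0.697 in place of 0.621. Leaving out 1 library gave sum ratios of 1.73 to 1.83 and ZFP36L1 share ratios of 2.02 to 2.09, with 1.83 and 2.02 both without DMSO replicate 2. The median of genes with 3 or more motifs was −0.059, but 0.072 for TTATTTATT, −0.17 without the length offset and 0.11 among 3′ UTRs of 1000 to 3000 bases, a window chosen after seeing the data. Without the length offset, 2 deadenylase and 2 exosome genes rose, 5 translational repression partners fell and 1 other binding protein rose. With mean centring, 11 deadenylase genes, 4 partners and 7 iron-linked genes fell, and 0 exosome genes, 1 other binding protein and 1 iron-linked gene rose. FXR1 turned to −0.035 without the length offset, KCTD2 to −0.080 with mean centring, and MTCH1 and SH3BP5L to −0.064 and −0.077 with mean centring and to −0.024 and −0.022 with GC and length trends removed. The causes of these shifts were not tested.

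Deviations of same-numbered libraries correlated at −0.074, 0.13 and 0.11, against −0.164 to 0.077 for libraries of different numbers. With 3 libraries per group, these values cannot decide whether the numbers pair the samples. With the replicate block, log2 fold changes were 0.34 (ZFP36), 1.83 (ZFP36L1) and 0.10 (ZFP36L2), 2345 genes were called and BCL2 no longer passed (DESeq2 adjusted p = 0.063). Transcript usage was called for 0 members under each alternative that gave a value. ZFP36 gave none without DMSO replicate 2 or without Chelator replicate 2.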
